A study of Mus musculus with 7 samples.

Results

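Long intergenic non-coding RNAs (lincRNAs) that were well expressed in mouse retina were taken from a table of raw read counts for 52550 genes. A gene was included if its annotated type was lincRNA and its mean over the 4 WT libraries was at least 2 CPM (the read count relative to the library total, on the usual CPM scale). Of 5009 lincRNAs in the table, 3016 had a count in any library, 902 had enough counts to be tested and 197 reached 2 CPM in WT, all 197 of which were tested. Because the selection used the WT values, a lincRNA that was scarce in WT and abundant in SCA7 retina could not be included, and the comparison of SCA7 with WT is not independent of the selection.

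The study profiled the retina in spinocerebellar ataxia type 7 (SCA7), a neurodegenerative disease in which an expanded CAG repeat in *ATXN7* also impairs photoreceptors. Total RNA was sequenced from C57BL/6J mice of 12.5 weeks, 4 WT and 3 homozygous SCA7 knock-in (SCA7 KI) mice that carry an expanded CAG repeat in both copies of *Atxn7* under its own promoter. Each library came from the 2 retinas of 1 mouse, and ribosomal RNA was removed before sequencing, so that transcripts without a poly(A) tail were also counted. Library totals were between 56497675 and 96635832 counts, and the CPM of single libraries given here are scaled between libraries by TMM.

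LincRNAs are transcribed by RNA polymerase II from loci that do not overlap the exons of protein-coding genes, and are often capped, spliced and polyadenylated like mRNAs. Many stay in the nucleus, where the best known scaffold nuclear bodies or act on chromatin, and others serve mainly as precursors from which microRNAs or small nucleolar RNAs are cut. In the retina, several are restricted to photoreceptors or to developing neurons. Most members carried only a provisional name, with 163 of the 197 having a Gm or Rik symbol, and for those no function is given here.

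Well expressed lincRNAs were mostly lower in SCA7 retina. Of the 197, 57 (28.9%) were downregulated (adjusted p under 0.05 and SCA7/WT under 0.7, quasi-likelihood test of edgeR with p adjusted by Benjamini-Hochberg across the 20128 tested genes) and 7 (3.55%) were upregulated (adjusted p under 0.05 and SCA7/WT over 1.3). Over all genes tested, 7.91% were downregulated and 7.47% upregulated. Among the 12994 other genes of at least 2 CPM in WT, 6.23% were downregulated and 7.21% upregulated. The 144 antisense genes at this level, another class of non-coding transcript, had a share close to that of the lincRNAs, with 28.5% down and 6.25% up. The 705 lincRNAs that were tested but stayed below 2 CPM in WT had 12.6% down and 4.26% up.

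The median log2 fold change (SCA7 against WT) of the 197 lincRNAs was -0.28, with quartiles of -0.61 and 0.01, against -0.02 over all genes tested, 0.02 for the other genes of at least 2 CPM, -0.25 for the antisense genes and -0.28 for the less abundant lincRNAs. In all, 146 lincRNAs were lower and 51 higher in SCA7, of which 20 lower and 3 higher ones had an adjusted p under 0.05 inside the fold limits. The 3 SCA7 libraries lay below all 4 WT libraries for 82 lincRNAs and above them for 13, together 48.2% of the 197, while the groups did not overlap for 37.5% of all genes tested. When lincRNAs were chosen by their mean over all 7 libraries, which uses both genotypes alike, 48 of 194 were downregulated and 10 upregulated. TMM scaling factors were 0.89 to 0.97 in WT and 1.07 to 1.09 in SCA7, and with libraries scaled by total counts alone, the split became 36 down and 20 up, while the median over all genes moved to 0.17 and that of the 197 lincRNAs to -0.09. With the level of Y-linked genes as a covariate, 21 were downregulated and 4 upregulated, while the median of the 197 lincRNAs was -0.20. That level, given as raw CPM without TMM scaling, was 331 to 355 in WT and 300 to 322 in SCA7, lower in every SCA7 library. *Xist*, scaled by TMM, was at 0.0612 to 0.300 CPM in all 7 libraries, so that every library had Y-linked reads and almost no *Xist*. The Y-linked level did not overlap between the genotypes, so the fit with this covariate cannot tell its effect apart from that of genotype.

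**Figure D1:**
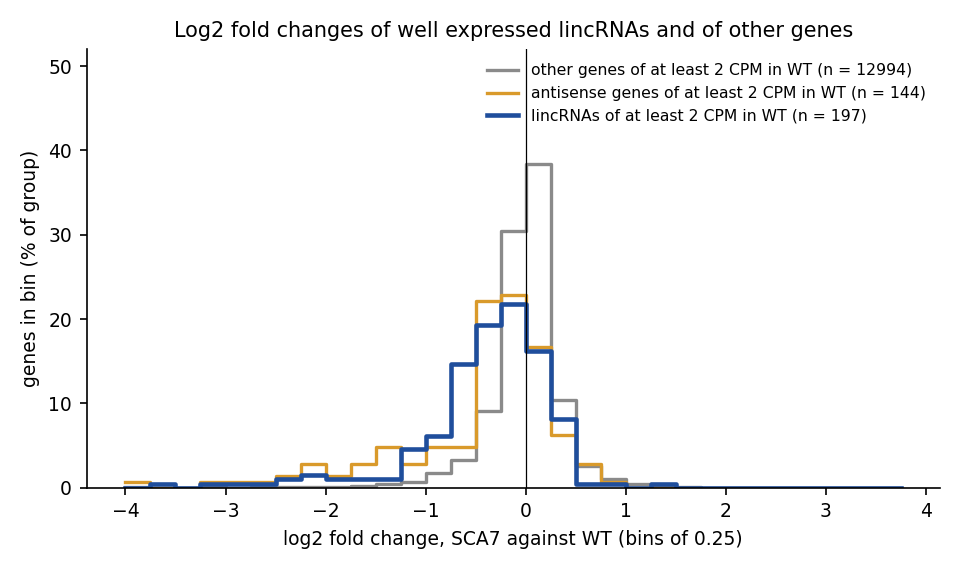
Share of genes (%) in bins of log2 fold change, SCA7 against WT, for the 197 lincRNAs of at least 2 CPM in WT, the 144 antisense genes and all 12994 other genes at that level, which include the antisense genes. Larger shares of the lincRNAs and the antisense genes than of the other genes lie to the left of 0, with medians of -0.28, -0.25 and 0.02.

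Decreases were found in each of 3 ranges of expression, to be read against the 7.91% down and 7.47% up over all genes tested, since no background was computed within the ranges. Between 2 and 5 CPM in WT, 24 of 90 lincRNAs were downregulated and 4 upregulated. Between 5 and 20 CPM the numbers were 21 and 3 of 77, and at 20 CPM or more 12 and 0 of 30. Of the 57 downregulated lincRNAs, 22 had a log2 fold change below -1 and 8 below -2, and the groups overlapped only for *F630040K05Rik* and *Gm45899*. The increases were smaller, with a median log2 fold change of 0.49 over the 7 and a single value above 1. Since the libraries are from whole retina, fewer cells of a type and less RNA per cell cannot be told apart in any of these values.

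Markers of several cell types moved with the genotype. All 10 rod and all 10 cone markers were downregulated, with summed rod markers at 63300 to 65400 CPM in WT, against 17200 to 22000 in SCA7, and cone markers at 1540 to 1800 and 319 to 342. All 10 microglial markers and 5 of 6 markers of reactive glia were upregulated, with sums of 48.4 to 62.7 and 97.0 to 108 CPM in WT, against 120 to 135 and 465 to 547 in SCA7. Of 8 bipolar cell markers 3 were downregulated, of 8 Müller glia markers 3 were upregulated, and the medians of the amacrine, horizontal and ganglion cell markers were -0.25, -0.10 and -0.11. Of 6 markers of endothelium and pericytes 2 were upregulated, with sums of 231 to 276 CPM in WT and 315 to 359 in SCA7. Pigment epithelium markers, from a tissue that adheres to the retina at dissection, summed to 103 to 210 CPM in WT, against 18.7 to 45.4 in SCA7 with 4 of 7 downregulated, and lens markers varied from 44.1 to 559 and from 32.0 to 894. The part of these changes in the lincRNA results was not tested.

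The microRNAs encoded inside lincRNAs give these loci their best defined products. Of the 197 lincRNAs, 19 contained a microRNA gene of RefSeq on their own strand, and 9 of the 19 (47.4%) were downregulated against 48 of the other 178 (27.0%), where 7.91% of all genes tested were. The other 10 were not called, and the median log2 fold change of the 19 was -0.53 against -0.26 for the rest. Without WT replicate 1, 7 of the decreases among the 197 lost their call and 2 other lincRNAs gained one. The hosts *Mir17hg*, *Mirg*, *Ftx* and *Snhg20* were among those 7, so the share of 47.4% rests in part on calls near the limits. The 3 lincRNAs that hold a miR-124 gene in the GENCODE annotation are among the 178, and with them counted as hosts the numbers are 10 of 22 (45.5%) and 47 of 175 (26.9%). The difference between these shares was not tested. The sequences below are the mature microRNAs of RefSeq (GRCm38.p6) from the loci that the results turn on, 5′ to 3′, with the seed (bases 2 to 8, which pair with target mRNAs) in capitals. The mature microRNAs themselves were not measured in these libraries. The first set comes from downregulated hosts, with miR-129-5p inside both *Mir670hg* and *Gm3294*.
miR-129-5p: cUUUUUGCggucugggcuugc
miR-670-5p: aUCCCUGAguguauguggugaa
miR-135a-5p: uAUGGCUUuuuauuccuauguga
miR-191-5p: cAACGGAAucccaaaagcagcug
miR-425-5p: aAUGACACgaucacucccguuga
miR-17-5p: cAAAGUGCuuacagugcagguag
miR-20a-5p: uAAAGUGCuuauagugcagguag
miR-18a-5p: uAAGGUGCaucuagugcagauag
miR-19a-3p: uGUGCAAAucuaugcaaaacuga
miR-19b-3p: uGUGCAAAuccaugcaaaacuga
miR-92a-3p: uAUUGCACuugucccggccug
The last 6 are from *Mir17hg*, in which miR-17-5p and miR-20a-5p share a seed, as do miR-19a-3p and miR-19b-3p.

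The next set comes from hosts that were not called, shown because they are the well known neural or widely expressed families among the 19. The seed of the let-7 members is the same in all 3, and miR-181a-5p and miR-181b-5p also share theirs.
miR-9-5p: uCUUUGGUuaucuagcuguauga
let-7a-5p: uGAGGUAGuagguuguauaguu
let-7d-5p: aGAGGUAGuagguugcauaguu
let-7f-5p: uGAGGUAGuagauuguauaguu
miR-181a-5p: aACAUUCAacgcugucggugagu
miR-181b-5p: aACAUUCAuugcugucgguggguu
The last set lies next to *Rncr4*, on the opposite strand, and forms the photoreceptor cluster of miR-183, miR-96 and miR-182.
miR-183-5p: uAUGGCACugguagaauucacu
miR-96-5p: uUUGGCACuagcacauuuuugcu
miR-182-5p: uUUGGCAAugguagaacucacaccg

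Both lincRNAs that hold a copy of the miR-129 gene were downregulated. *Mir670hg* (ENSMUSG00000075020, chr2:94160636-94264918, minus strand), which also holds miR-670, was at 13.3, 13.7, 16.1 and 15.1 CPM in WT replicates 1 to 4 and at 5.04, 5.51 and 6.35 CPM in SCA7 replicates 1 to 3. The groups were far apart, with the mean 2.58 times lower in SCA7 (log2 fold change -1.36, SE 0.10, adjusted p = 2.1e-06). *Gm3294* (chr6:28981634-29028922, plus strand), which spans the other copy, was at 4.10, 2.98, 2.66 and 4.25 CPM in WT, against 1.41, 1.70 and 1.69 CPM in SCA7. The groups were again separate (log2 fold change -1.12, SE 0.18, adjusted p = 6.3e-04). *4833445I07Rik* (chr9), the host of miR-191 and miR-425, fell from 10.9 ± 1.29 (SD, n = 4) to 5.94 ± 0.240 CPM (SD, n = 3), with a log2 fold change of -0.88 (adjusted p = 5.7e-05).

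*Rmst*, a neuronal lincRNA with a miR-135a gene and the miR-1251 gene within its span, was at 31.9, 30.7, 34.7 and 28.3 CPM in WT, against 16.8, 19.5 and 18.4 CPM in SCA7 (log2 fold change -0.78, SE 0.08, adjusted p = 2.5e-05). *Mir17hg*, precursor of the miR-17 to miR-92a cluster known for its role in proliferation, was at 6.10, 4.66, 4.45 and 5.26 CPM in WT, against 3.58, 3.42 and 3.09 CPM in SCA7. The groups did not overlap, but its log2 fold change of -0.61 (SE 0.13, adjusted p = 3.9e-03) became -0.51 without WT replicate 1, just inside the fold limit. *A230057D06Rik* on chromosome 7, in which 7 genes of the miR-344 family lie, had a log2 fold change of -0.61 (SE 0.10, adjusted p = 8.1e-04). The remaining downregulated hosts were *Mirg*, *Ftx* and *Snhg20*, which are described with their own groups.

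The hosts of miR-9, let-7 and miR-181 were not called. *C130071C03Rik*, which encloses the miR-9-2 gene of neural progenitors and neurons, was at 55.8 to 61.6 CPM in WT, against 51.1 to 53.8 CPM in SCA7 (log2 fold change -0.16, SE 0.06, adjusted p = 0.052). *Gm3764*, with the miR-9-1 gene, had a log2 fold change of 0.19 (SE 0.23) and overlapping groups. *6720427I07Rik*, the host of 3 let-7 genes, had 15.1 to 24.7 CPM in WT, against 11.5 to 15.9 in SCA7 (log2 fold change -0.47, SE 0.21, adjusted p = 0.14), and *A430106G13Rik*, with miR-181a-1 and miR-181b-1, had -0.24 (SE 0.20). These 3 hosts were measured less precisely than *Mir670hg* and *Rmst*, whose SEs were 0.10 and 0.08.

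**Figure D2:**
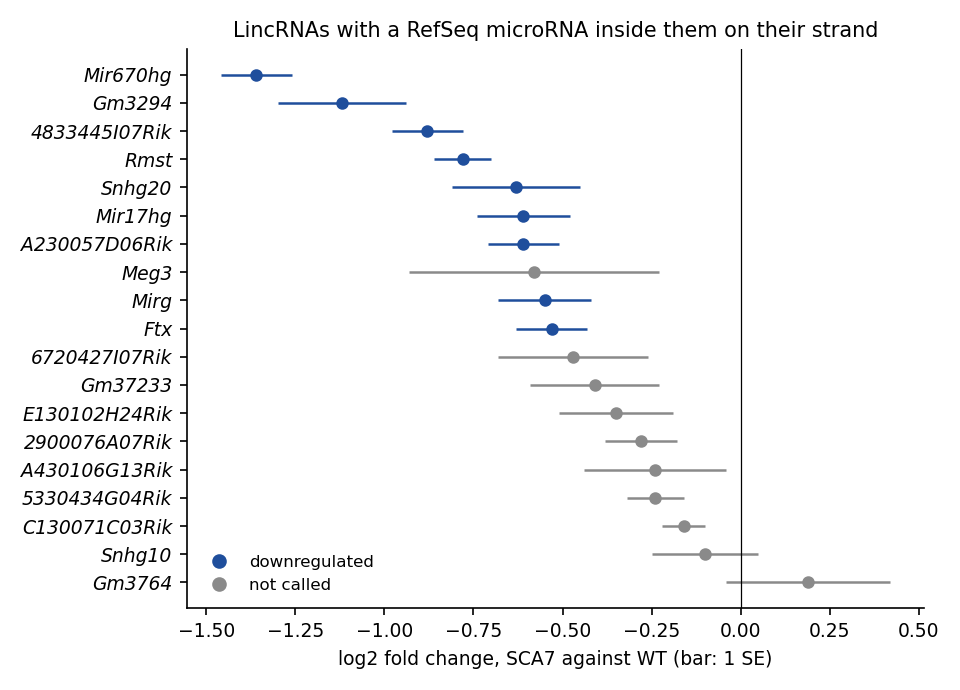
Log2 fold change, SCA7 against WT, with a bar of 1 SE, of the 19 lincRNAs that hold a RefSeq microRNA gene on their strand, the 9 downregulated ones in blue. *Mir670hg* and *Gm3294*, the hosts of miR-129-5p, lie furthest to the left at -1.36 and -1.12, and *Gm3764* alone lies to the right of 0.

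*Rncr4*, a retinal lincRNA of photoreceptors, had the largest decrease among the 10 lincRNAs with the most reads in WT. It lies at chr6:30172893-30175126 on the plus strand as a single exon, and the miR-183 gene lies 3156 bases away on the minus strand. It was at 108, 96.0, 83.6 and 92.2 CPM in WT, against 24.9, 31.2 and 29.0 CPM in SCA7. The groups were far apart, and the mean was 3.35 times lower (log2 fold change -1.74, SE 0.10, adjusted p = 2.9e-07).

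Reads on the 197 lincRNAs made up 1.19% ± 0.190 (SD, n = 4) of all counts in WT and 0.876% ± 0.0398 (SD, n = 3) in SCA7, and *Malat1* alone made up 0.622% ± 0.164 and 0.373% ± 0.0439. Without *Malat1* the shares were 0.567% ± 0.0320 and 0.503% ± 0.00921, so that most of the difference between the shares was reads on this gene. *Gm26917* and *Gm42418* together made up 0.199% in WT and 0.1875% in SCA7. Without these and *Malat1* the shares were 0.368% and 0.3155%. *Malat1*, which is transcribed from chr19:5795690-5802672 and accumulates in nuclear speckles, was at 7734, 5786, 4749 and 7924 CPM in WT, against 3697, 3632 and 3026 CPM in SCA7. The WT libraries spread over 1.67-fold, yet the lowest exceeded every SCA7 library (log2 fold change -0.92, SE 0.17, adjusted p = 2.9e-03).

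Of the 3 hosts of miR-124, an abundant microRNA of neurons, 2 were also among the 10 lincRNAs with the most reads. *Mir124-2hg* (chr3:17789921-17808970) was at 712, 602, 528 and 700 CPM in WT, against 344, 346 and 310 CPM in SCA7, with no overlap and a log2 fold change of -0.93 (SE 0.10, adjusted p = 4.2e-05). *Mir124a-1hg* (chr14:64587331-64593961), known in the retina as RNCR3, was at 227, 139, 101 and 233 CPM in WT, against 81.0, 83.0 and 60.3 CPM in SCA7. Its log2 fold change of -1.23 was larger, but the SE of 0.35 left the adjusted p at 0.051, and it was called without WT replicate 3, the lowest WT library (adjusted p = 0.021), and by the Wald test of DESeq2 (0.0023) and by limma-voom (0.0073). *Gm27032*, the remaining host, was at 5.23, 4.14, 3.54 and 4.86 CPM in WT, against 3.67, 3.10 and 3.28 CPM in SCA7, with overlapping groups and a log2 fold change of -0.41 (adjusted p = 0.046) inside the fold limit.

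Other abundant lincRNAs changed less. *1700020I14Rik* was at 433 to 504 CPM in WT, against 356 to 386 CPM in SCA7 (log2 fold change -0.36, adjusted p = 2.6e-03), a decrease without overlap that stayed inside the fold limit. *2900097C17Rik* was higher in every SCA7 library, at 299 to 355 CPM in WT, against 377 to 399 CPM in SCA7 (log2 fold change 0.28, adjusted p = 0.012), and with total-count scaling it passed the fold limit at 0.47. *Gm26917* and *Gm42418* lie 617 bases apart on chromosome 17, and RefSeq gives the latter a name related to ribosomal RNA (Rn18s-rs5). *Gm42418* also overlaps an annotated ribosomal RNA gene on the other strand. Whether reads on either gene are residual ribosomal RNA was not tested. *Gm26917* and *Gm42418* were at 1722 to 2407 and 97.5 to 175 CPM in WT, against 1448 to 1745 and 136 to 150 CPM in SCA7, with overlapping groups and log2 fold changes of -0.30 (adjusted p = 0.076) and 0.01 (adjusted p = 0.97). *A930003A15Rik* also overlapped, at 109 to 170 CPM in WT, against 105 to 115 in SCA7. Per kilobase of exon, *Malat1* had the highest WT level of the 197 (938 CPM per kb), followed by *Gm26917* (592) and *A930003A15Rik* (118), with *Mir124-2hg* (106) in the fourth place.

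**Figure D3:**
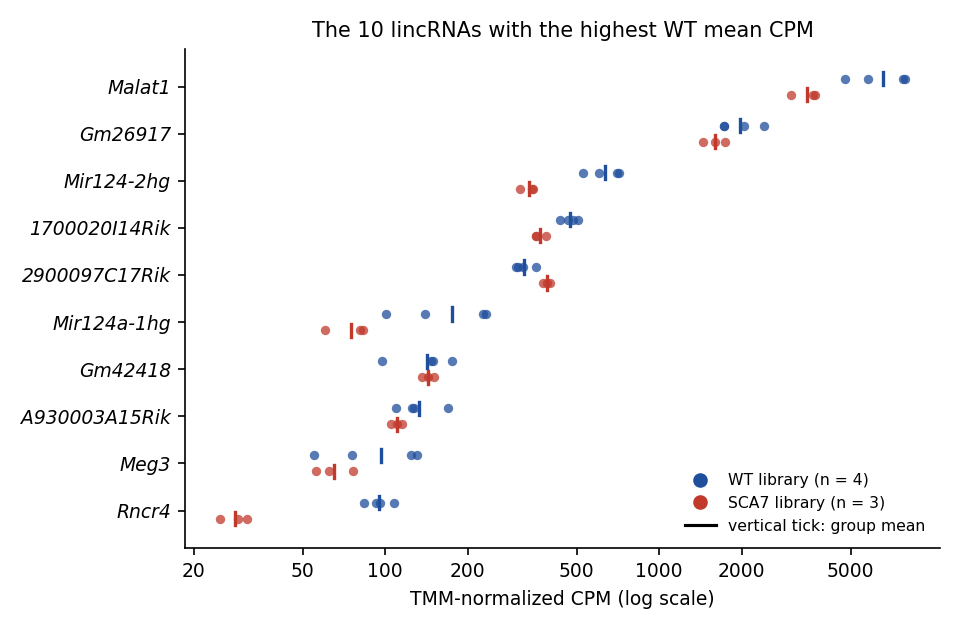
TMM-normalized CPM on a log axis in each of the 4 WT and 3 SCA7 libraries for the 10 lincRNAs with the highest WT mean, with a tick at each group mean. *Malat1*, *Mir124-2hg*, *1700020I14Rik*, *Mir124a-1hg* and *Rncr4* show SCA7 libraries to the left of all WT libraries. *2900097C17Rik* shows them to the right, while *Gm26917*, *Gm42418*, *A930003A15Rik* and *Meg3* overlap.

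The largest decreases among downregulated lincRNAs were in genes without a known function. *Gm11754* (chr11:119106328-119111425, minus strand) was at 4.07, 4.39, 4.46 and 3.09 CPM in WT, against 0.195, 0.246 and 0.437 CPM in SCA7, which rests on 12, 21 and 45 reads. The mean was 13.7 times lower, with a log2 fold change of -3.70 (SE 0.24, adjusted p = 7.5e-07). *A930031H19Rik* (chr4:131000832-131010474, minus strand) was at 2.14, 3.03, 2.18 and 1.64 CPM in WT, against 0.179, 0.305 and 0.253 CPM in SCA7, on 11 to 26 reads per SCA7 library. Its mean was 9.15 times lower (log2 fold change -3.16, SE 0.26, adjusted p = 3.5e-06).

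*B230220B15Rik* (chr13:107996285-108004669, plus strand) combined a large change with a high level. It was at 65.8, 59.4, 63.2 and 61.3 CPM in WT, against 6.13, 7.28 and 10.2 CPM in SCA7. The 4 WT libraries lay within 1.11-fold of each other and the SCA7 mean was 7.92 times lower (log2 fold change -2.97, SE 0.16, adjusted p = 1.5e-06). The gene overlaps *Ndufaf2*, an assembly factor of respiratory complex I, on the other strand. *Ndufaf2* had a log2 fold change of -0.12 (adjusted p = 0.52), and the strand option used for counting is not given in the sources used here.

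The other 7 of the 10 largest decreases that passed the test were *Gm28514*, *Gm35256*, *Gm2233*, *Gm4065*, *Gm33843*, *Gm30198* and *C430042M11Rik*, with log2 fold changes from -2.47 to -1.80 and adjusted p from 2.6e-06 to 4.1e-04. Their WT means were between 2.26 and 5.73 CPM and their SCA7 means between 0.504 and 1.64 CPM, and the groups overlapped in none of the 7. *C430042M11Rik*, for example, was at 5.98, 5.45, 6.30 and 5.19 CPM in WT, against 1.41, 1.98 and 1.53 CPM in SCA7. *Gm33843* shares its locus on chromosome 10 with *Gm48505* on the same strand (log2 fold change -1.20), so that the split of reads between them is uncertain, and *Gm2233* lies 80290 bases from *Gm33195* on chromosome 13, which was also downregulated (-0.85). Among 14 pairs of the 197 lincRNAs within 100 kb of each other, these were the 2 pairs in which both were downregulated. Of the 197, 107 overlap another annotated gene, 70 of them one on the same strand, and the values of these are uncertain in the same way.

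Increases were few. *2810032G03Rik* (chr12:5375870-5416631, plus strand) was at 2.96, 2.195, 2.79 and 2.42 CPM in WT, against 6.71, 6.04 and 5.95 CPM in SCA7, 2.41 times higher in the mean (log2 fold change 1.27, SE 0.12, adjusted p = 1.3e-05). *Gm16701* rose from 9.57 ± 0.213 to 16.6 ± 0.430 CPM (log2 fold change 0.79, adjusted p = 4.3e-06) and *5330413P13Rik* from 15.0 ± 1.01 to 24.2 ± 1.38 CPM (0.69, adjusted p = 2.7e-05). *BC055402* rose from 10.1 ± 0.522 to 13.7 ± 0.609 CPM (0.44, adjusted p = 8.4e-04). These 4 kept their call with any single library left out. The calls of *4930595L18Rik* (0.49), *Gm11261* (0.47) and *Gm5914* (0.41) did not. The first was kept only without WT replicate 3, the third only without WT replicate 3 or SCA7 replicate 3, and *Gm11261* was lost without WT replicate 1 (adjusted p = 0.051) or SCA7 replicate 3 (adjusted p = 0.10).

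**Figure D4:**
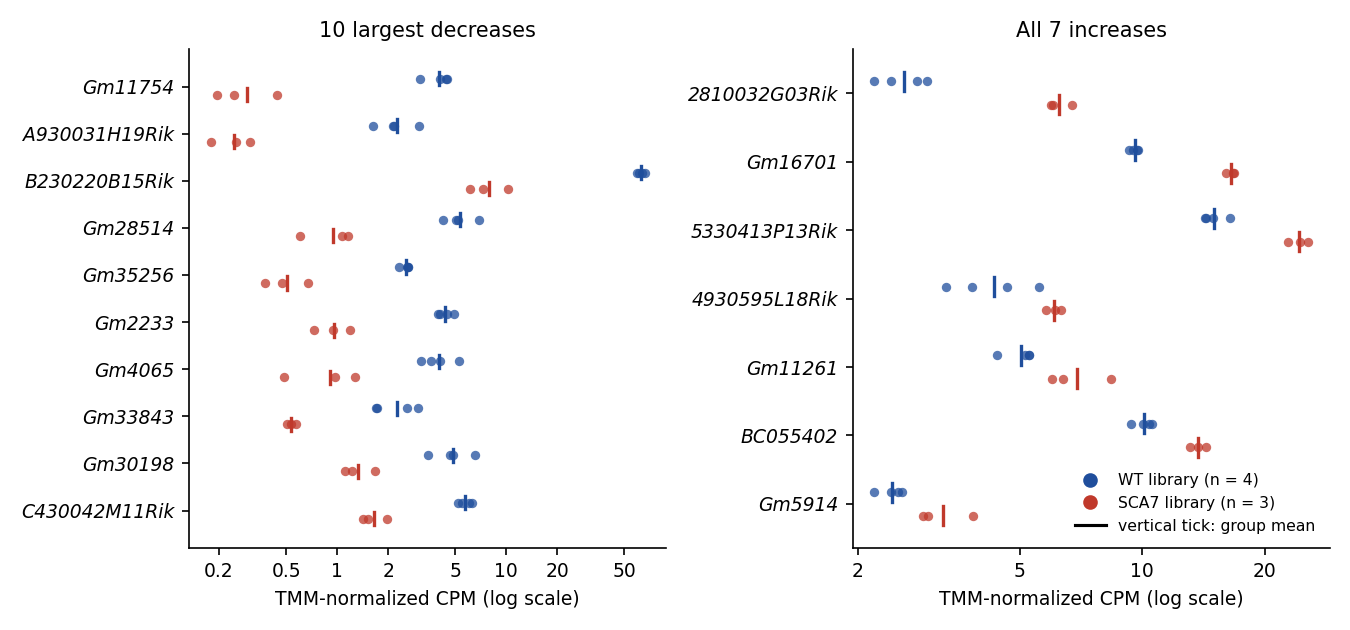
TMM-normalized CPM on log axes in each WT and SCA7 library for the 10 lincRNAs with the largest decreases (left) and the 7 upregulated ones (right), with a tick at each group mean. The groups do not overlap in any of the 17, and *B230220B15Rik* stands out on the left by its WT level of 59.4 to 65.8 CPM.

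Lists of known non-coding RNAs, which hold other biotypes beside lincRNAs, were read against the 7.91% of all genes tested that were downregulated and their median of -0.02. Of 6 tested transcripts of nuclear bodies and chromatin, 1 (*Malat1*) was downregulated, and the median log2 fold change was -0.49. *Neat1*, the scaffold of paraspeckles, was at 17.1, 11.7, 7.84 and 14.5 CPM in WT, against 11.2, 11.1 and 8.01 in SCA7, and *Miat*, a nuclear lincRNA of neurons also known as RNCR2, was at 16.3, 9.70, 7.65 and 15.1 CPM and 9.47, 7.12 and 6.92. In both, the WT libraries spread over more than 2-fold and the groups overlapped (log2 fold changes -0.35 and -0.64, adjusted p = 0.39 and 0.15).

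Of 9 imprinted non-coding RNAs, 1 (*Mirg*) was downregulated, with a median of -0.36. *Rian*, of another biotype, had an adjusted p of 0.007 inside the fold limit (log2 fold change -0.36), and *H19* and *Peg13* had values above 0 that did not pass the test. *Meg3*, a maternally expressed RNA of the *Dlk1*-*Dio3* domain, was at 124, 75.9, 55.0 and 131 CPM in WT, against 76.1, 62.4 and 55.9 CPM in SCA7 (log2 fold change -0.58, SE 0.35, adjusted p = 0.28). *Mirg*, a microRNA-rich transcript of the same domain, was at 11.7, 7.98, 11.7 and 10.7 CPM in WT, against 7.39, 6.43 and 7.69 CPM in SCA7 (log2 fold change -0.55, SE 0.13, adjusted p = 8.2e-03). Its call was lost without WT replicate 1, WT replicate 3 or SCA7 replicate 2, with values of -0.48 to -0.50 that fell inside the fold limit. Of the X inactivation genes, *Ftx* was downregulated (12.2 ± 1.44 to 8.43 ± 0.554 CPM, log2 fold change -0.53, adjusted p = 1.9e-03), a call lost without WT replicate 1, SCA7 replicate 1 or SCA7 replicate 3, while *Jpx*, which overlaps it on the other strand, was not called (-0.19, adjusted p = 0.35).

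Hosts of small nucleolar RNAs carry in their introns the guides for ribosomal RNA modification. Of 17 tested hosts of any biotype, 2 fell and 1 rose past the limits, and their median was -0.20, where 7.91% and 7.47% of all genes tested did with a median of -0.02. Of the 5 among the 197 lincRNAs, *Snhg20* was called down (16.4, 10.6, 9.27 and 13.4 CPM in WT, 8.68, 8.11 and 7.28 CPM in SCA7, log2 fold change -0.63, adjusted p = 0.024), but it lost its call when WT replicate 1 or 4 or any of the SCA7 replicates was left out. *Epb41l4aos* had a log2 fold change of -0.46 (adjusted p = 0.012) and was downregulated without WT replicate 4 (-0.56). *Snhg6*, *Snhg12* and *Snhg18* were between -0.20 and -0.07 with overlapping groups.

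Of 12 tested transcripts listed as neighbors of retinal transcription factor genes, 3 were downregulated, beside 7.91% of all genes tested, with a median of -0.38 beside -0.02. The 3 are *Rncr4* and *Rmst*, given above, and the antisense gene *Vax2os* (log2 fold change -1.49), which is not among the 197. For neither *Rncr4* nor *Rmst* is the nearest coding gene one of those factors, so the count says little of such neighbors. *Otx2os1*, which overlaps *Otx2* on the other strand, was at 18.4 to 20.5 CPM in WT, against 16.5 to 17.4 CPM in SCA7 (log2 fold change -0.21, adjusted p = 0.032), and *Lhx1os* was at 1.94 to 2.68 and 2.08 to 2.56 CPM. *Lncpint*, a lincRNA induced by p53 that was listed with the microRNA hosts, was at 9.94, 8.95, 13.8 and 8.57 CPM in WT, against 5.54, 5.40 and 6.16 CPM in SCA7 (log2 fold change -0.85, SE 0.15, adjusted p = 1.8e-03). Over that list, which shares only *C130071C03Rik*, *Mir17hg* and *Mir670hg* with the 19 hosts above and includes genes of other biotypes, 4 of 9 tested were downregulated, with a median of -0.61, to be read against the same background.

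The lincRNAs varied more between WT mice than other genes did, in a comparison not matched for expression level. Their median WT level was 5.95 CPM, and the part of low counts in this variation was not tested. The median coefficient of variation over the 4 WT libraries was 0.134 for the 197 lincRNAs and 0.079 for other genes of at least 2 CPM, and over the 3 SCA7 libraries 0.0837 and 0.0418. WT replicate 1 was the highest WT library for 93 of the 197 and WT replicate 3 for 50, and WT replicate 3 was the lowest for 80. For 58 lincRNAs the order was the same, with WT replicates 1 and 4 above replicate 2 and replicate 3 at the bottom, among them *Mir124a-1hg*, *Meg3*, *Neat1* and *Miat*, whose highest WT library exceeded the lowest by 2.12 to 2.38 times. Of these 58, 17 were downregulated, a share close to the 28.9% of all 197, where 7.91% of all genes tested were. Without WT replicate 1 the counts over the 197 were 52 down and 5 up, and without WT replicate 3 they were 60 and 8. *Gm26870*, noted after its values were seen, was the most uneven, at 9.46, 0.0839, 0.15 and 31.5 CPM in WT, against 5.20, 0.0703 and 0.0486 CPM in SCA7, so that its membership rests on 2 libraries. Its log2 fold change of -2.68 (SE 2.30, adjusted p = 0.45) was below those of 7 of the 10 downregulated lincRNAs described above, but it did not pass the test.

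At the limit of selection, *Gm17586* and *Gm6297* both had a WT mean of 2.01 raw CPM and were included, with log2 fold changes of 0.30 and -0.26. *1700086O06Rik* and *Gm48622*, at 1.97 and 1.96 raw CPM, were the first to be left out, with 0.03 and -0.34. Of the 197, 27 were below 2 CPM in at least 1 WT library.

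The structure of the genes was compared without a test. The highest number of exons in any transcript had a median of 3 both for downregulated lincRNAs and for those not called. Single-exon genes were 5 of the 57 downregulated lincRNAs (8.77%) and 28 of the 133 that were not called (21.1%). The downregulated lincRNAs lay on 18 chromosomes, 3 of them on X. A RefSeq promoter window (250 bases before to 50 after the start) was matched for 104 of the 197. GC content had a median of 51.3% in 27 windows of downregulated lincRNAs and 55.5% in 72 of those not called, and it was over 60% in 6 and 27 of them.

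The windows were searched for the core letters bound by 2 photoreceptor transcription factors, CRX (TAATCC, or GGATTA on the other strand) and NRL (TGCTGA, or TCAGCA on the other strand). TAATCC was present in 4 of the 27 windows of downregulated lincRNAs (14.8%), in 12 of all 104 (11.5%) and in 7.06% of the 32851 promoter windows of the table. TGCTGA was present in 3 of 27 (11.1%), 18 of 104 (17.3%) and 19.5%. With 4 and 3 windows the shares among downregulated lincRNAs are imprecise, and the RefSeq start lay over 300 bases from the annotated start in 8 of the 27 and 24 of the 104 windows, by up to 16280 bases. In *Gm33195* and *A730063M14Rik* it lay 113 and 106 bases away. The 4 windows with the CRX core are printed from RefSeq (GRCm38.p6) in the direction of transcription, 5′ to 3′, with the core or its reverse complement in capitals, so that its place before the start can be seen.
A930031H19Rik: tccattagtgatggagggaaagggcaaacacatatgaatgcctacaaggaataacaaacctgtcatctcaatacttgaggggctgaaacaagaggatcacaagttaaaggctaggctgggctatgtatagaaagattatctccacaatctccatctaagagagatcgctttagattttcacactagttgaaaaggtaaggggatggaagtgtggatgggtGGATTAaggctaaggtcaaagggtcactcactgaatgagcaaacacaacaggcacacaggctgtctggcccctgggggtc
Gm2233: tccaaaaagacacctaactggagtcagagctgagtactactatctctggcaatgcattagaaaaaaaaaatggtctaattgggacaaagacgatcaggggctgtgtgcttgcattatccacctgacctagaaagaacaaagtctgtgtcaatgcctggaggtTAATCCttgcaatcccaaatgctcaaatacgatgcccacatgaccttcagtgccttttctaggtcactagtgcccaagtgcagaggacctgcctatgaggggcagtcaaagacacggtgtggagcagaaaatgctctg
Gm33195: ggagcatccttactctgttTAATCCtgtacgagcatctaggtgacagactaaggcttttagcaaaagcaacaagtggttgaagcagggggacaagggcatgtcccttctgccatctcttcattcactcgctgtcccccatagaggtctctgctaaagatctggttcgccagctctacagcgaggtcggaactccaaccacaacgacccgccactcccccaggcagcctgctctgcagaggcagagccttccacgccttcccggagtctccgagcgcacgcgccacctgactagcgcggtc
A730063M14Rik: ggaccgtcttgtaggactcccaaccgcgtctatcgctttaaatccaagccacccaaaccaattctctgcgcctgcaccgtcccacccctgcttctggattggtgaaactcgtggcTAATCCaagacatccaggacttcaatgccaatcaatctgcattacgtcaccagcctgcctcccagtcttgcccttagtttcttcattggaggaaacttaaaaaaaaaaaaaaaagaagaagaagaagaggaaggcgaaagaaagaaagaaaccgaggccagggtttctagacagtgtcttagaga
They lie at chr4:131010425-131010724 (minus strand), chr13:43948626-43948925, chr13:43864306-43864605 and chr10:127070231-127070530 (plus strand). The core begins 30 bases before the start in *A930031H19Rik*, on the other strand, and 88, 231 and 135 bases before it in the others, on the strand of the gene. *A930031H19Rik* and *Gm2233* are among the 10 largest decreases, while *A730063M14Rik* had a log2 fold change of -0.55 and lost its call without WT replicate 1 or SCA7 replicate 3.

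Most downregulated lincRNAs had a nearest protein-coding gene that was not downregulated. A nearest coding gene that could be tested was found for 165 of the 197. It was downregulated for 5 of the 48 downregulated lincRNAs with such a neighbor (10.4%) and for 4 of 112 that were not called (3.57%), beside 7.91% of all genes tested. Of the 5 upregulated lincRNAs with a tested neighbor, 3 had an upregulated one, as did 4.17% of the downregulated lincRNAs with such a neighbor and 13.4% of those not called, beside 7.47% of all genes tested. Over the 165 pairs the log2 fold changes of lincRNA and neighbor had a Pearson r of 0.30 and a Spearman rho of 0.32, a description across loci that share the same 7 libraries.

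The neighbors of 9 of the 10 largest decreases are given here. *Matn1*, next to *A930031H19Rik*, was at 0 CPM in both groups and was not tested. *Dyrk2*, a kinase gene 50313 bases from *Gm4065*, had -0.39 (adjusted p = 0.017), and *Golga5*, 1526 bases from *Gm30198*, had 0.20 (adjusted p = 0.034). The neighbors of the other 6, *Ndufaf2*, *Zfp507*, *Map1s*, *Cd83*, *Btg1* and *Haao*, had log2 fold changes of -0.15 to 0.15 with adjusted p of 0.13 or more.

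Divergent pairs, in which lincRNA and coding gene start within 3 kb of each other and run apart, had r = 0.61 and rho = 0.51 over 37 pairs, and whether this differs from the value over all pairs was not tested. Of these 37 lincRNAs 13 were downregulated (35.1%) and 2 upregulated, a share of decreases near the 28.9% of all 197, where 7.91% of all genes tested were downregulated. Both genes fell in 4 pairs, 3 of which are named here after their values were seen. *5930412G12Rik* (log2 fold change -0.97) starts 151 bases from *Fzd10*, a Wnt receptor gene (-1.71, adjusted p = 1.1e-07), *Gm37748* (-0.98) 223 bases from *Uap1* (-0.52, adjusted p = 6.0e-04), and *F630040K05Rik* (-0.66) 662 bases from *1600014C23Rik* (-0.88, adjusted p = 8.0e-03). The call of *F630040K05Rik* was lost without WT replicate 3, SCA7 replicate 1 or SCA7 replicate 2. Both genes rose in 2 pairs. *2810032G03Rik* starts 188 bases from *Klhl29*, at 22.8 CPM in WT, against 46.5 CPM in SCA7 (log2 fold change 1.03, adjusted p = 1.4e-06), and *Gm16701* 576 bases from *Fam78b* (0.50, adjusted p = 6.7e-05). Among pairs that are not divergent, *Mir670hg* (-1.36) lies beside *Hsd17b12* (0.03), which was not called.

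**Figure D5:**
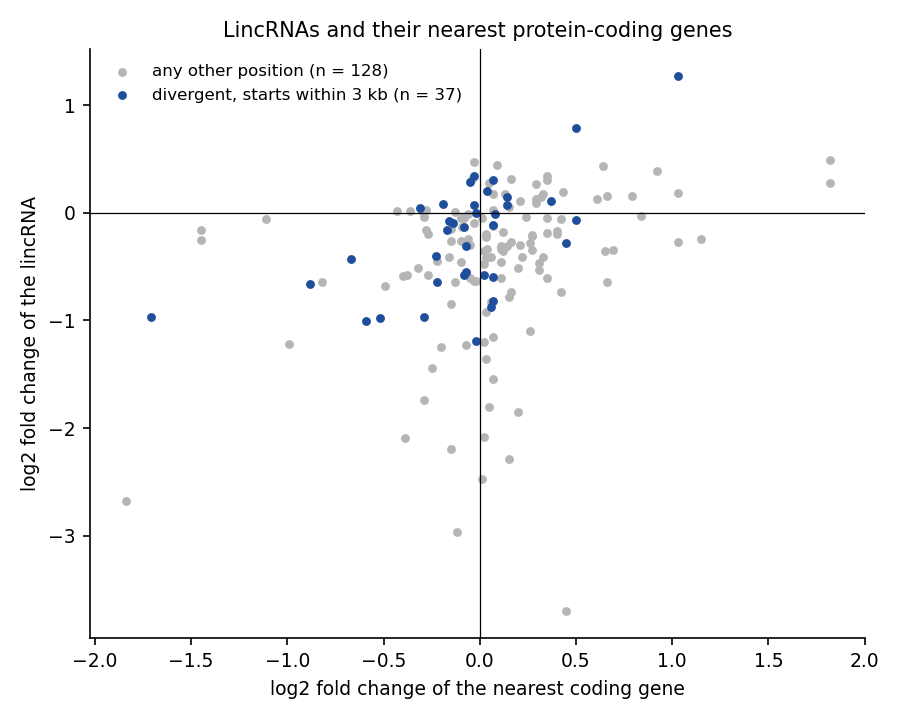
Log2 fold change (SCA7 against WT) of each lincRNA against that of its nearest protein-coding gene for 165 pairs, with the 37 divergent pairs in blue. The divergent pairs have r = 0.61, and of their 13 downregulated lincRNAs 4 have a downregulated neighbor.

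Position in regulatory domains was compared as counts. Of the study's 268 predicted retinal superenhancers, stretches of dense enhancer marks, 3 downregulated lincRNAs overlapped one (*Gm11754*, *A330094K24Rik* and *Gm40477*, 5.26% of 57) and 3 that were not called did (*Otx2os1*, *C030037D09Rik* and *5930430L01Rik*, 2.26% of 133). *Gm11754* was thus the largest decrease of all 197 and the only one of the 10 largest in such a domain. The nearest coding gene was in the study's list of CRX targets for 6 of 57 (10.5%) and 12 of 133 (9.02%). *C130071C03Rik* and *Gm26803* have as nearest coding gene *Mef2c*, a transcription factor gene that fell from 174 to 63.5 CPM (log2 fold change -1.45, adjusted p = 4.3e-07), while they themselves had -0.16 and -0.25.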

How the data were processed

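Total RNA from the retinas of 4 WT and 3 SCA7 KI mice was sequenced as stranded libraries. The deposited values are raw counts of reads per gene, made by the authors with TopHat2 2.0.14, Bowtie2 2.1.0 and HTSeq 0.6.1 on mm10, and the strand option and overlap mode of counting are not given in the sources used here. The authors counted on Ensembl release 90, whereas biotypes, positions and exon lengths were taken here from the later GENCODE M21, which matched 52403 of 52550 gene identifiers, so that CPM per kb and overlaps can be off where gene models changed. Genes passing filterByExpr were normalized by TMM and tested by the quasi-likelihood test of edgeR 4.0.16 in R 4.3.3 with p adjusted by Benjamini-Hochberg across the 20128 tested genes. SE is the absolute log2 fold change divided by the square root of F. The test was checked on simulated data. Alternatives used DESeq2 1.42.0 and limma-voom (limma 3.58.1).

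The lincRNAs and all gene lists were chosen with earlier results of these data known. Named lincRNAs are the 10 with the highest WT mean, the 10 largest decreases, the upregulated ones (at most 10), those on the role lists, those at the selection limit and the nearest coding genes of the largest changes. LincRNAs named as microRNA hosts, motif holders, superenhancer overlaps or partners of a neighbor are outside that rule and were chosen with their values in view. Groups follow the submitters' genotype labels. Some neighboring genes are not reported here.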

Additional observations from a re-analysis of the deposited data

Results flagged for a closer look

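Among 44 named lincRNAs, 3 had 1 WT library further from the other 3 than Dixon's limit for 4 values, a limit that chance alone passes in about 1 in 20 groups. *Gm11261* was lowest in WT replicate 1 at 4.39 CPM, against 5.15 to 5.28 CPM in the others. *Jpx* was highest in WT replicate 1 at 4.17 CPM, against 2.97 to 3.08 CPM. *Epb41l4aos* was lowest in WT replicate 4 at 12.8 CPM, against 17.2 to 17.8 CPM.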

How the results depend on the processing

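The counts of 57 downregulated and 7 upregulated lincRNAs stayed within 1.5 times under DESeq2 size factors (57 and 7), the DESeq2 Wald test (59 and 8), limma-voom (59 and 7), no filter on low counts (52 and 7) and no fold limit (77 and 10), and ranged from 50 to 61 and from 5 to 8 with 1 library left out. Of the 57 decreases, 44 kept their call in all 7 fits with 1 library left out, as did 4 of the 7 increases. The counts moved to 36 and 20 with total-count scaling, which kept 36 of the 57. With the level of Y-linked genes as a covariate, the counts were 21 and 4, and 36 of the 57 decreases lost their call. The median of the 197 lincRNAs was then -0.20, and 13 of the named lincRNAs were called. This level is lower in all SCA7 libraries than in WT, so the fit cannot tell its effect apart from that of genotype. At an adjusted p under 0.01 the increases were 4, at 1 CPM or more 13 of 321 lincRNAs, and at 5 CPM or more 33 fell and 3 rose of 107. Without *Malat1* the share of counts was 0.567% in WT and 0.503% in SCA7.

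Among the named lincRNAs, changes of sign were found only in those not called. Total-count scaling gave 0.03 for *Snhg12*, 0.12 for *Snhg18* and 0.03 for *C130071C03Rik* on the log2 scale, and the Y-linked covariate 0.05 for *Gm26917* and 0.02 for *Snhg6*. With 1 library left out, *Gm42418* ranged from -0.13 to 0.13, below 0 without WT replicate 4 or SCA7 replicate 2, and *Lhx1os* from -0.03 to 0.13, below 0 without WT replicate 2, WT replicate 4 or SCA7 replicate 3. The cause was not tested.

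With the replicate number as a block, 61 lincRNAs were downregulated and 9 upregulated, with *Gm42418* at -0.13 and *Lhx1os* at -0.03. Deviations of same-numbered samples correlated at 0.0221, 0.137 and 0.153, and SCA7 replicates 2 and 3 correlated best with their own number and SCA7 replicate 1 with WT replicate 2. The numbers in the sample titles lie close together within each same-numbered pair, while that of WT replicate 4 lies far from the rest. The labels name no shared litter or day, so that pairing was not established.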
